A study of Homo sapiens with 6 samples.

Results

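Collagens, laminins and integrins were compared in 6 established human breast cancer cell lines. Members were chosen by gene name: every gene of the deposited expression table named as a collagen chain, a laminin alpha, beta or gamma chain, or an integrin alpha or beta chain, with binding proteins of integrins left out. This gave 71 of 16418 genes used, of which 37 were collagens, 11 laminins and 23 integrins. The names left out were COL4A3BP, ITGB1BP1, ITGB1BP2, ITGB3BP and ITGBL1. A further 12 genes of these families, among them COL4A4, COL11A1, LAMA1 and ITGA8, had no row under those symbols and were not analysed here. No filter on low values was applied, but every gene of the table reached at least 1.001 in some line, so a member low in every line would not have been seen.

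Each line was its own group with 1 library. UACC-812 is labelled ductal carcinoma and was grown in Leibovitz L-15 with 20% fetal bovine serum and 20 ng/ml EGF. MDA-MB-415 is labelled adenocarcinoma and was grown in Leibovitz L-15 with 15% serum and insulin and glutathione at 10 mcg/ml each. SKBR3, an adenocarcinoma, had RPMI 1640 with 20% serum, and MDA-MB-453, a metastatic carcinoma, had IMEM with 20% serum. T47D, a ductal carcinoma, and CAL51, a breast carcinoma, had RPMI 1640 with 10% serum. The series title refers to a subclass of cancer, and no label says which of these lines belong to it. The source labels name a pleural effusion for MDA-MB-415, SKBR3, T47D and CAL51 and a pericardial one for MDA-MB-453. Medium and line cannot be told apart. With 1 library for each line there is no replicate spread, so no difference below carries a biological error, an interval or a test, and each describes the libraries. Values are exon RPKM added up for each gene, a unit read from the values because no label states it, and the sums grow with exon number, so that a level is read between lines for 1 gene. Recovered depths lay between 25600000 reads in UACC-812 and 36500000 in CAL51. A value of 0.548 in CAL51 to 0.781 in UACC-812 equals 3 reads in an exon of 150 bp, so a difference of about that size could not be detected.

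The epithelial label was checked against EPCAM, KRT8, KRT18, KRT19 and CDH1. All 5 exceeded 1 in every line except CDH1, the epithelial cadherin, which was 0.823 in SKBR3. Of 6 fibroblast and endothelial markers measured, the summed level was between 211 in SKBR3 and 911 in CAL51. In every line most of that sum came from 1 of these markers, which ran from 195 in SKBR3 to 702 in CAL51. PDGFRB, the pericyte receptor, was 188 in CAL51 and at most 2.48 in the other lines, while DCN, the fibroblast proteoglycan, and CDH5 and VWF of endothelium were listed at 0 in CAL51. DCN was 11.1 in MDA-MB-415 and listed at 0 in every other line, and VWF was 20.4 for MDA-MB-415 and at most 2.30 elsewhere. CDH5 was highest in SKBR3, at 10.3, with 3.43 in MDA-MB-415. The summed level of 8 leukocyte markers was lowest in SKBR3, at 56.4, and highest in MDA-MB-415, at 1726. The part of these markers in the differences below was not tested.

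Collagens are secreted chains that wind into triple helices and form the fibrils and sheets of the extracellular matrix. Laminins are trimers of an alpha, a beta and a gamma chain that, with type IV collagen, build the basement membrane under an epithelium. Integrins are pairs of an alpha and a beta chain that bind these matrix proteins at the cell surface and couple them to the cytoskeleton. In the breast, a basement membrane surrounds the ducts and is normally made jointly by epithelial and stromal cells.

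On the log2(value + 1) scale, the members differed more between lines than genes in general. A gene of many exons passes the fixed 1 at a lower level per exon, and exon number was not matched in the comparisons with all genes. The median range between the highest and lowest line was 5.01 on the log2(value + 1) scale for the members (5.01 for collagens, 5.68 for laminins and 4.40 for integrins), beside 2.37 for all genes. Of the 71 members, 28 (39.4%) exceeded 1 in every line, beside 68.6% of all genes, and 35 were listed at 0 in at least 1 line, beside 3289 of the 16418 genes. MDA-MB-415 had the most members above 1, 58 of 71 (81.7%), and MDA-MB-453 the fewest, 40 (56.3%). Among all genes the same shares came to 86.9% for MDA-MB-415 and 81.0% for MDA-MB-453. CAL51 was the highest line for 26 members (36.6%, beside 27.9% of all genes) and MDA-MB-415 for 21 (29.6%, beside 16.5%). MDA-MB-453 was highest for 2, COL4A5 and COL4A6. In bulk RNA, fewer cells that express a gene and less RNA in each cell cannot be told apart.

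**Figure D1:**
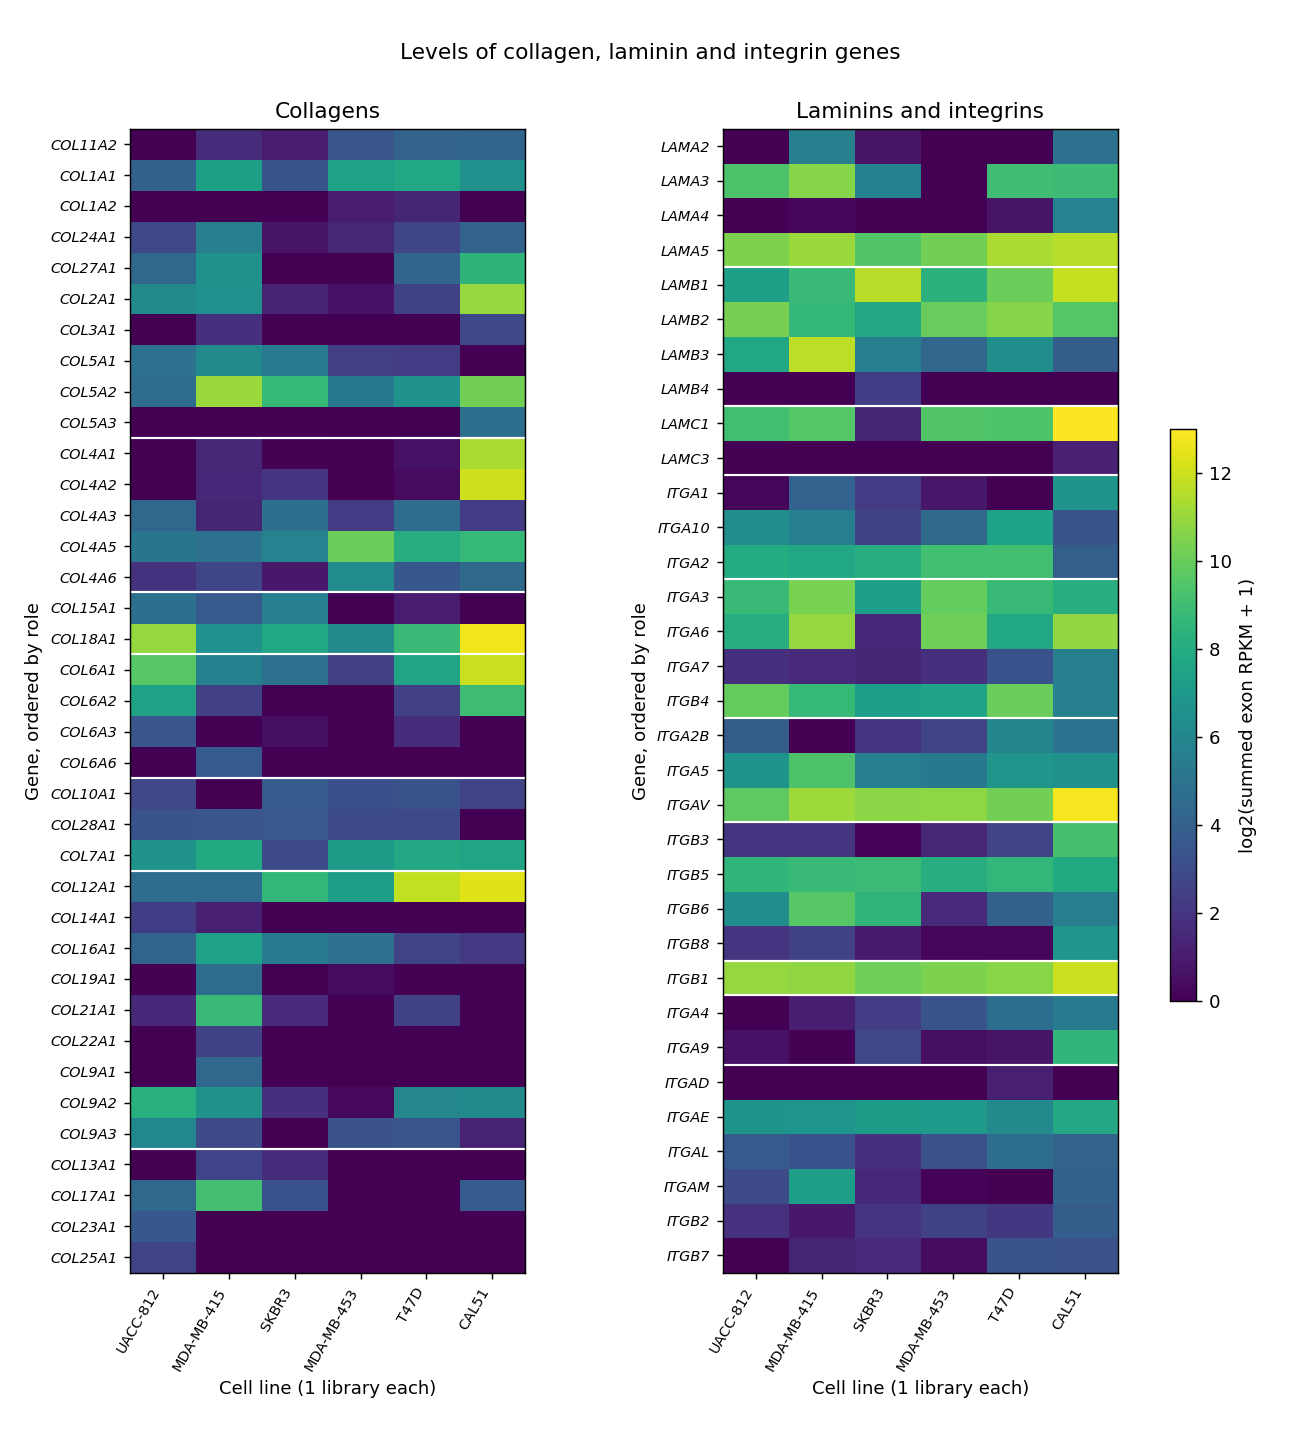
Levels of the collagen, laminin and integrin genes on the log2(summed exon RPKM + 1) scale, with 1 column for each line and 1 library for each column; white lines separate roles. LAMC1, ITGAV and COL18A1 are each brightest in CAL51, and many collagens are dark in all lines but 1.

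A gene was called apart in a line when it lay at least 2 log2 units, which is 4-fold on the log2(value + 1) scale, beyond every other line. In CAL51, 12 members were apart above the others, where 4.01% of all genes were. In MDA-MB-415 there were 10, where 3.69% of all genes were. UACC-812 had 3 (all genes, 1.8%) and SKBR3 had 1 (0.53%). MDA-MB-453 and T47D had none, where 0.408% and 0.834% of all genes were apart above. Apart below the others were 4 members in SKBR3 (all genes, 1.94%), 3 for MDA-MB-453 (0.956%), 3 for CAL51 (1.97%) and 2 for MDA-MB-415 (0.78%). Some of these calls rested on a listed 0, which may be a failed estimate. They were COL10A1 and ITGA2B in MDA-MB-415, COL5A1 and COL28A1 in CAL51, and LAMA3 in MDA-MB-453. UACC-812 and T47D had none apart below, where the shares of all genes were 0.189% and 0.347%. Without MDA-MB-453 the count apart below in SKBR3 was 9, without SKBR3 that in MDA-MB-453 was 7, and without CAL51 that apart above in UACC-812 was 6. Counting any line and either direction, 36 of 71 members (50.7%) were apart, beside 16.9% of all genes. Exon number was not matched here either, and some calls rested on low levels. Per exon of the longest annotated transcript, COL22A1 was 0.0755 in MDA-MB-415 and LAMB4 was 0.125 in SKBR3.

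**Figure D2:**
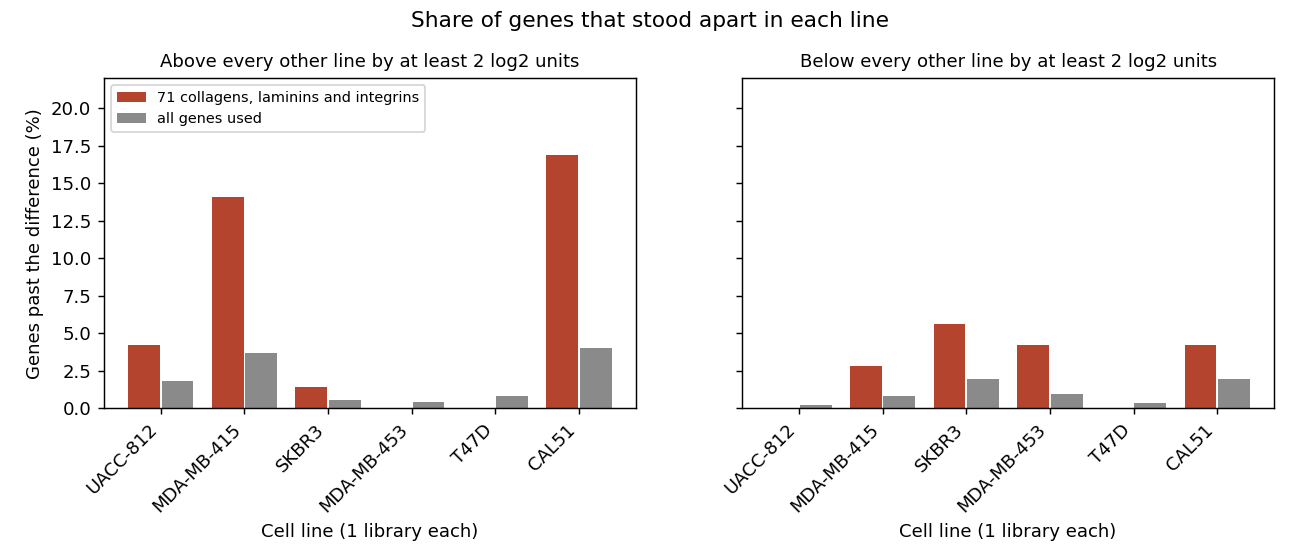
Percent of genes apart above (left) and below (right) every other line by at least 2 log2 units, for the 71 members (red) and all 16418 genes used (grey), with 1 library for each line. The tallest bars are the members in CAL51, at 16.9%, and in MDA-MB-415, at 14.1%, both for genes above the others.

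A wider call counted genes at least 2-fold from the median of the 5 other lines, after subtracting the median shift of all genes in that line, which ran from -0.46 log2 units in SKBR3 to 0.23 in CAL51. The share of all genes is in brackets after each count in this paragraph. In CAL51, 33 members were above (all genes, 20.9%) and 13 below (18%). In MDA-MB-415, 31 were above (19.9%) and 12 below (18.7%). MDA-MB-453 ran the other way, with 7 above (12.9%) and 28 below (15.9%), and SKBR3 had 17 above (15.9%) and 24 below (21.2%). T47D had 17 above (16.2%) and 12 below (11.5%), and for UACC-812 the counts were 18 above (20.6%) and 14 below (13.5%). As shares of the 71 members, 46.5% were above and 18.3% below in CAL51, and 43.7% and 16.9% for MDA-MB-415. They were 9.86% and 39.4% for MDA-MB-453, 23.9% and 33.8% for SKBR3, 23.9% and 16.9% for T47D, and 25.4% and 19.7% for UACC-812. The shares below in CAL51 and MDA-MB-415 were thus near those of all genes. The median difference over the members was 0.79 log2 units in CAL51, 0.52 for MDA-MB-415, 0.28 for SKBR3, -0.05 for T47D, -0.19 for UACC-812 and -0.50 for MDA-MB-453, each after the same centring that puts the median of all genes at 0. Before centring the medians were 1.02 in CAL51, 0.51 for MDA-MB-415, -0.18 for SKBR3, 0.04 for T47D, 0 for UACC-812 and -0.50 for MDA-MB-453. The sign in SKBR3 thus depended on the centring, which also moves genes tied at 0.

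The network-forming type IV collagens, the sheet of every basement membrane, varied in pairs. COL4A1, the ubiquitous chain, was 2566 for CAL51, against 0 for UACC-812, 1.63 for MDA-MB-415, 0.0600 for SKBR3, 0.0199 for MDA-MB-453 and 0.558 for T47D. Its partner COL4A2 was 4076 for CAL51, against 0 for UACC-812, 1.86 for MDA-MB-415, 2.99 for SKBR3, 0.0270 for MDA-MB-453 and 0.293 for T47D. Both were thus high in 1 library and near or under the level of a few reads in the others. Of the genes next to them, RAB20 was 5.33 in CAL51 and 7.71 to 28.2 in the others, and CARKD was 151 in CAL51 and 102 to 249 in the others. CARS2 was 814 in CAL51 and 183 to 379 in the others, and IRS2 was 25.2 in CAL51 and at most 3.25 in the others. Pearson's r between COL4A1 and COL4A2 was 0.99 and Spearman's rho 0.83 over the 6 lines, on the log2(value + 1) scale, with CAL51 far from the other lines for both genes. Such coefficients describe 6 libraries that also differ in depth and medium.

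COL4A5 and COL4A6, the chains of some specialised basement membranes, were highest in MDA-MB-453. COL4A5 was 1096 for MDA-MB-453, against 32.3 for UACC-812, 27.9 for MDA-MB-415, 53.0 for SKBR3, 278 for T47D and 420 for CAL51. COL4A6 was 77.5 for MDA-MB-453, against 2.68 for UACC-812, 5.52 for MDA-MB-415, 0.838 for SKBR3, 10.4 for T47D and 21.7 for CAL51. The 3 highest lines came in the same order for both genes, and r was 0.89 and rho 0.77. Neither was apart in these values, but COL4A6 passed the 2 log2 units when libraries were rescaled, with a gap of 2.04 to 2.12. Per exon, with the exons of the longest annotated transcript, COL4A5 was at 20.7 and COL4A6 at 1.69 in MDA-MB-453. COL4A3, a chain best known from kidney and lung, was highest in SKBR3 at 26.5 and T47D at 24.2 and lowest in MDA-MB-415 at 1.52.

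Promoter sequences are shown for these 2 head-to-head pairs of type IV collagen genes, whose levels moved in pairs, and for LAMB3 and COL17A1, which were apart above in MDA-MB-415. They come from RefSeq on GRCh38.p14, in which 52 of the 71 members had a promoter entry. Capitals mark matches, on either strand, to 4 motifs: the GC box GGGCGG, the CCAAT box, the AP-1 element TGANTCA and the E-box CACCTG. COL4A1 and COL4A2 start 126 bases apart on opposite strands, and the whole interval, chr13:110307158-110307283, is shown on the plus strand. COL4A5 and COL4A6 also start on opposite strands, 379 bases apart, and the 250 bases before COL4A5, chrX:108439588-108439837, are shown on the plus strand. That distance uses the annotated COL4A6 start nearest COL4A5. For LAMB3 the 250 bases at chr1:209652426-209652675 and for COL17A1 those at chr10:104085881-104086130 are shown on the minus strand, each ending at the base before the annotated start. For LAMB3 this is the first of 3 annotated starts.
COL4A1-COL4A2: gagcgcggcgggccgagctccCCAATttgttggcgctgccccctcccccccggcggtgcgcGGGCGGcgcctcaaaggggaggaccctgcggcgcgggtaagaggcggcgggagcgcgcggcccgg
COL4A5: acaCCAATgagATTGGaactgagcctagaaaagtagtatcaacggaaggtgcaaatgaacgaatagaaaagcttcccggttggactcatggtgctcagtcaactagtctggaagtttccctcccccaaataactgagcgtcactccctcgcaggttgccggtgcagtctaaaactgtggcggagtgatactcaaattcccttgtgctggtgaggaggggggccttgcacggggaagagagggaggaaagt
LAMB3: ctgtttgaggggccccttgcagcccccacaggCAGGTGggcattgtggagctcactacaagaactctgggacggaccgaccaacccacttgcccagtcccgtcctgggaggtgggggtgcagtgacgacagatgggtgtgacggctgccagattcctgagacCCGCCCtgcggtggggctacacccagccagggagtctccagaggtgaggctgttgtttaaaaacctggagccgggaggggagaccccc
COL17A1: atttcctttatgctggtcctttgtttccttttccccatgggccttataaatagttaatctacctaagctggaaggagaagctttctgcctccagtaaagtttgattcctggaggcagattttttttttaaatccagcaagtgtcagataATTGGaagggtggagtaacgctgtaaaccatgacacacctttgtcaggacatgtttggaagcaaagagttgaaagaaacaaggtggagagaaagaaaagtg

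The interval between COL4A1 and COL4A2 was 80.2% G and C and held 1 GC box and 1 CCAAT box. The COL4A5 window held 2 CCAAT matches facing opposite ways. The LAMB3 window held 1 GC box and 1 CACCTG match, and the COL17A1 window held 1 CCAAT match. None of the 4 windows held the AP-1 letters. Over 35116 promoters cut to 250 bases, 42.6% held a GC box, 32.0% a CCAAT box, 6.57% the AP-1 letters and 17.5% the CACCTG letters. Cut to 126 bases, the shares were 34.6%, 21.1%, 3.50% and 8.74% in the same order. The motifs thus occurred in many promoters, and a match is only a description of these letters.

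The multiplexins COL15A1 and COL18A1, proteoglycan collagens of the basement membrane zone, differed from each other. COL18A1, the source of endostatin, was 6725 for CAL51, against 1958 for UACC-812, 94.7 for MDA-MB-415, 212 for SKBR3, 69.4 for MDA-MB-453 and 435 for T47D. COL15A1 was listed at 0 for CAL51 and was 0.0263 for MDA-MB-453 and 1.02 for T47D, against 50.3 for SKBR3, 25.5 for UACC-812 and 12.0 for MDA-MB-415.

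**Figure D3:**
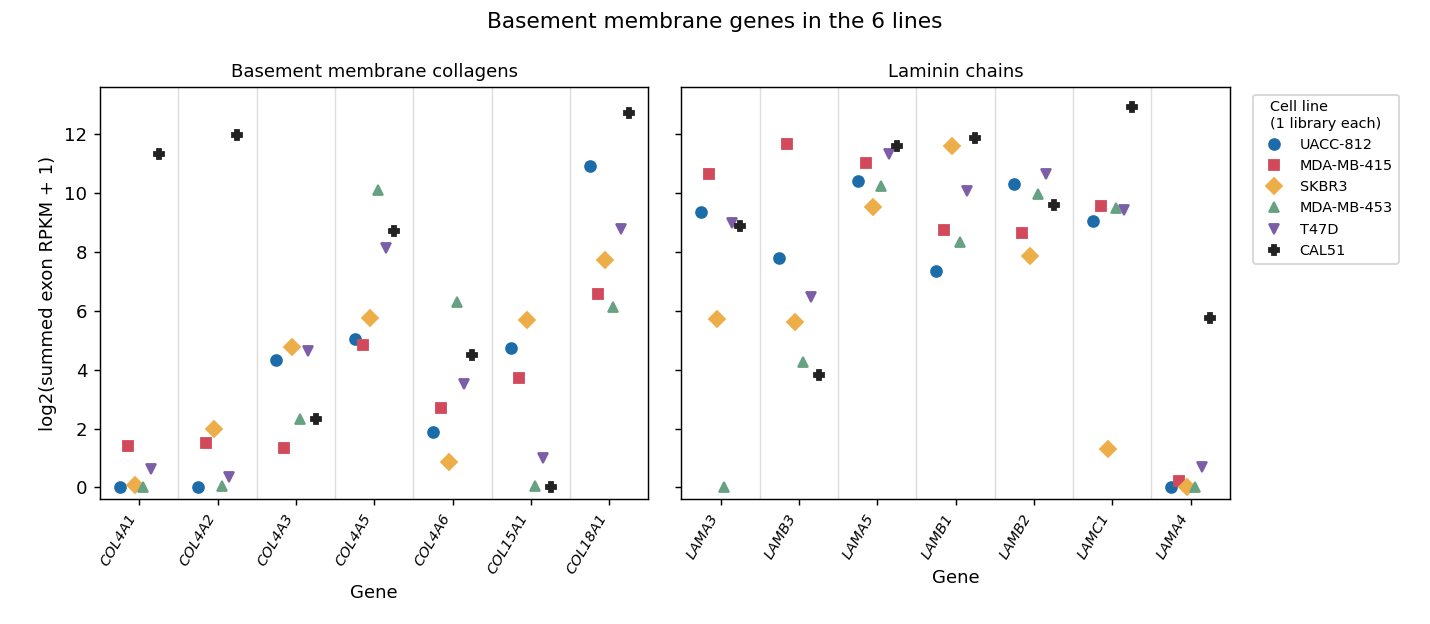
Levels of basement membrane collagens (left) and laminin chains (right) on the log2(summed exon RPKM + 1) scale, with 1 symbol for each line and 1 library for each line. CAL51 stands alone for COL4A1 and COL4A2, SKBR3 lies at the bottom for LAMC1, and MDA-MB-453 is at 0 for LAMA3.

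The beaded-filament type VI collagen joins COL6A1 and COL6A2 with a longer chain such as COL6A3. COL6A1 was 3963 for CAL51, against 787 for UACC-812, 51.1 for MDA-MB-415, 28.98 for SKBR3, 4.45 for MDA-MB-453 and 191 for T47D, so that CAL51 was apart above and MDA-MB-453 apart below. COL6A2 was 506 for CAL51 and 181 for UACC-812, against 4.48 for MDA-MB-415, 4.52 for T47D and a listed 0 for SKBR3 and MDA-MB-453. The order of lines was nearly shared, with r of 0.94 and rho of 0.99 over the 6 lines. COL6A3 was not high with them: it was listed at 0 in CAL51, and its highest value was 10.2 in UACC-812. COL6A6, a further long chain, was 11.7 in MDA-MB-415 and listed at 0 in the others. COL18A1, COL6A1 and COL6A2 lie near each other on chromosome 21, and the gene SLC19A1 between them was 90.8 in CAL51 and 15.1 to 101 in the other lines. UACC-812 was the highest line for the nearby ADARB1 at 78.6, C21orf56 at 26.8, LSS at 1580, MCM3AP at 2372, C21orf57 at 81.0 and C21orf58 at 165. C21orf58 was lowest in CAL51, at 2.03. FTCD was 11.9 in CAL51 and 11.2 in UACC-812, and POFUT2 was highest in MDA-MB-415 at 234. The part of the region in these levels was not tested.

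The fibrillar collagens, which form the banded fibres of connective tissue, differed widely between lines, with most of the high values in CAL51 and MDA-MB-415. COL2A1, the cartilage collagen, was 2070 for CAL51, against 73.1 for UACC-812, 94.95 for MDA-MB-415, 1.35 for SKBR3, 0.548 for MDA-MB-453 and 4.67 for T47D, which was 21.8-fold over the next line. COL5A2, a chain of the type V collagen that joins type I fibrils, was 2115 for MDA-MB-415 and 1207 for CAL51, against 24.2 for UACC-812, 418 for SKBR3, 37.4 for MDA-MB-453 and 101 for T47D. Its usual partner COL5A1 was 74.8 in MDA-MB-415 but listed at 0 in CAL51, where it was apart below lines that held 3.87 to 74.8. COL5A3 was 26.6 in CAL51 and listed at 0 in every other line. COL27A1, another cartilage collagen, was 352 in CAL51 and 102 in MDA-MB-415, against at most 19.3 elsewhere, with SKBR3 at 0 and MDA-MB-453 at 0.0664.

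COL1A1, the main chain of type I collagen, was 14.8 for UACC-812, 168 for MDA-MB-415, 9.38 for SKBR3, 171 for MDA-MB-453, 213 for T47D and 90.7 for CAL51. COL1A2, with which it normally forms the type I molecule, was 1.52 in T47D and 1.09 in MDA-MB-453 and listed at 0 in the other 4 lines. COL3A1, the other collagen common in stroma, reached 6.09 in CAL51 and 2.45 in MDA-MB-415 and was listed at 0 elsewhere. In the 4 lines with the highest COL1A1, COL1A2 was thus at most 1.52 and COL3A1 at most 6.09. COL24A1 was highest in MDA-MB-415 at 50.4, and COL11A2 in CAL51 at 17.2 and T47D at 16.8, an order that turned round under rescaling.

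The FACIT collagens, which decorate fibrils, included COL12A1 with 5363 for CAL51 and 3635 for T47D, against 23.9 for UACC-812, 22.1 for MDA-MB-415, 383 for SKBR3 and 156 for MDA-MB-453. Several other FACIT genes were seen chiefly in MDA-MB-415. COL21A1 was 456 for MDA-MB-415, against 1.74 for UACC-812, 2.07 for SKBR3, 4.84 for T47D and a listed 0 for MDA-MB-453 and CAL51. COL9A1 was 19.2 and COL22A1 was 4.91 in MDA-MB-415, and both were listed at 0 in the other 5 lines. COL19A1 was 23.5 for MDA-MB-415 and 0.320 or 0 in the rest, and COL16A1 was 171 for MDA-MB-415, against 38.2 for SKBR3, 28.1 for MDA-MB-453, 17.1 for UACC-812, 5.36 for T47D and 3.58 for CAL51. The gap of COL16A1, a little over 2 log2 units in these values, was 1.65 to 1.72 after rescaling. In UACC-812 the FACIT chains COL9A3, at 67.2 against at most 9.79 elsewhere, and COL9A2, at 307 against at most 97.4, were highest. COL14A1 was 4.24 in UACC-812 and at most 1.23 in the others.

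Among the transmembrane collagens, COL17A1, the hemidesmosome collagen that anchors basal epithelial cells, was 555 for MDA-MB-415, against 20.2 for UACC-812, 8.72 for SKBR3, 12.7 for CAL51 and a listed 0 for MDA-MB-453 and T47D. This was 27.5-fold over the next line. COL23A1 at 11.05 and COL25A1 at 5.29 were seen in UACC-812 alone, with 0 listed for the other 5 lines. COL13A1 was 5.06 in MDA-MB-415 and 2.28 in SKBR3 and listed at 0 elsewhere. COL7A1, which forms the anchoring fibrils under the basement membrane, was 6.56 for SKBR3, against 98.8 for UACC-812, 240 for MDA-MB-415, 133 for MDA-MB-453, 228 for T47D and 190 for CAL51. The next lowest line was 15.1-fold above SKBR3. COL10A1, of hypertrophic cartilage, was listed at 0 in MDA-MB-415 and was 5.41 to 12.5 in the others, and COL28A1 was listed at 0 in CAL51 and was 6.22 to 11.4 in the others.

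LAMA3 and LAMB3, chains of the epithelial anchoring laminin, were both highest in MDA-MB-415. LAMB3 was 3290 for MDA-MB-415, against 221 for UACC-812, 48.6 for SKBR3, 18.3 for MDA-MB-453, 88.9 for T47D and 13.3 for CAL51, which was 14.9-fold over the next line. LAMA3 was 1595 for MDA-MB-415, against 654 for UACC-812, 51.4 for SKBR3, 512 for T47D, 474 for CAL51 and a listed 0 for MDA-MB-453, the only line apart below. Per exon of the longest transcript, MDA-MB-415 had 143 for LAMB3 and 21.3 for LAMA3, whereas CAL51 had 0.578 for LAMB3 and 6.32 for LAMA3, so the order of the chains was turned round. Over the 6 lines LAMA3 and LAMB3 gave r of 0.59 and rho of 0.83.

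Among the gamma chains, LAMC1 separated SKBR3 from the rest. LAMC1, the gamma chain of most laminins, was 1.499 for SKBR3, against 531 for UACC-812, 756 for MDA-MB-415, 715 for MDA-MB-453, 686 for T47D and 7800 for CAL51. The next lowest line was 355-fold above SKBR3, and CAL51 was 10.3-fold above the next highest. In SKBR3, 3 reads in an exon of 150 bp equal 0.593, so the size of the 355-fold ratio rests on few reads. LAMC3 was 1.31 in CAL51 and listed at 0 elsewhere.

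Among the other laminin chains, LAMA5, the main alpha chain of adult epithelial basement membranes, was 1365 for UACC-812, 2084 for MDA-MB-415, 743 for SKBR3, 1203 for MDA-MB-453, 2604 for T47D and 3100 for CAL51. The authors list LAMA5 among 5 control genes in the deposited workbook. LAMB1, the widespread beta chain, was 3750 for CAL51 and 3149 for SKBR3, against 162 for UACC-812, 430 for MDA-MB-415, 321 for MDA-MB-453 and 1068 for T47D. SKBR3 became the highest line for LAMB1 after each of 3 rescalings. Per exon, SKBR3 had 9.29 for LAMA5 and 92.6 for LAMB1 but 0.0535 for LAMC1. LAMB1 and LAMC1 gave r of -0.21 over the lines, while LAMA5 and LAMC1 gave 0.85. LAMB2, of mature basement membranes, was 1268 for UACC-812, 400 for MDA-MB-415, 231 for SKBR3, 997 for MDA-MB-453, 1616 for T47D and 772 for CAL51. LAMA4, the vascular alpha chain, was 53.6 in CAL51 and at most 0.611 elsewhere. LAMA2, the muscle alpha chain, was 50.3 in MDA-MB-415 and 28.2 in CAL51 and at most 0.594 elsewhere. LAMB4 was 4.26 in SKBR3 and listed at 0 in the others.

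Among the receptors, the 4 laminin-binding integrins exceeded 1 in every line, although in SKBR3 ITGA6 and ITGA7 were both under 2. ITGA6, the alpha chain that pairs with ITGB1 or, in hemidesmosomes, with ITGB4, was 1.84 for SKBR3, against 277 for UACC-812, 1966 for MDA-MB-415, 1139 for MDA-MB-453, 219 for T47D and 1893 for CAL51. The next lowest line was 119-fold above SKBR3, a ratio that rests on few reads in SKBR3. Around ITGA6, HAT1 was 1120 and PDK1 73.6 in SKBR3, both inside the range of the other lines. SKBR3 was the lowest line for DYNC1I2, at 502 against 710 to 1333, for ZAK, at 26.4 against 113 to 269, and for RAPGEF4, at a listed 0 against 0.798 to 95.4. It was the highest line for SLC25A12, at 320 against 72.4 to 279, for DLX1, at 10.7 against 0.234 to 9.98, and for DLX2, at 3.56 against 0.0196 to 2.68. ITGB4 was 49.2 for CAL51, against 978 for UACC-812, 416 for MDA-MB-415, 153 for SKBR3, 177 for MDA-MB-453 and 1057 for T47D. ITGA6 and ITGB4 gave r of -0.05 and rho of -0.20 over the lines. ITGA3, the other main epithelial laminin receptor, was 430 for UACC-812, 1325 for MDA-MB-415, 150 for SKBR3, 981 for MDA-MB-453, 433 for T47D and 284 for CAL51. ITGA7, the muscle laminin receptor, was 45.8 in CAL51, 8.57 in T47D and 1.56 to 2.51 elsewhere.

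The members apart below in SKBR3 thus included the gamma chain LAMC1, the laminin receptor ITGA6 and COL7A1, and CDH1 was low there as well. SKBR3 also had the lowest ITGB1, at 1120, although MDA-MB-453 took that place under rescaling. ITGB3 was lowest there too, but its 0.0805 was under 0.593, the level of 3 reads in a 150 bp exon in SKBR3. Other members went the other way, with SKBR3 the highest line for ITGB5 at 459 and COL15A1 at 50.3.

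The collagen-binding alpha chains ITGA1, ITGA2 and ITGA10 all pair with ITGB1. ITGA2, the epithelial collagen receptor, was 14.3 for CAL51, against 256 for UACC-812, 214 for MDA-MB-415, 288 for SKBR3, 526 for MDA-MB-453 and 537 for T47D. The next lowest line was 15.0-fold above CAL51. ITGA1, the receptor more typical of stromal cells, was 105 for CAL51, against 0.151 for UACC-812, 15.7 for MDA-MB-415, 3.92 for SKBR3, 0.796 for MDA-MB-453 and 0 for T47D. CAL51 thus held the highest ITGA1 and the lowest ITGA2 of the 6 lines. ITGA10 was highest in T47D at 188, against 83.4 for UACC-812, 47.6 for MDA-MB-415, 4.68 for SKBR3, 21.4 for MDA-MB-453 and 9.25 for CAL51.

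ITGB1, the partner of most alpha chains, had a range of 1.83 log2 units, beside the median of 4.40 over the integrins, with 1974 for UACC-812, 1854 for MDA-MB-415, 1120 for SKBR3, 1384 for MDA-MB-453, 1623 for T47D and 3992 for CAL51. The authors list ITGB1 among 11 recapping targets in the deposited workbook. ITGB5 had a range of 240 in CAL51 to 459 in SKBR3.

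ITGAV, the alpha chain of receptors for the RGD sequence in fibronectin and vitronectin, was 7288 for CAL51, against 866 for UACC-812, 2150 for MDA-MB-415, 1728 for SKBR3, 1759 for MDA-MB-453 and 1184 for T47D. Its range was 3.07 log2 units, and its partners ITGB3, ITGB6 and ITGB8 had wider ones, unlike ITGB5 with 0.93. ITGB3 was 596 for CAL51, against 2.92 for UACC-812, 2.87 for MDA-MB-415, 0.0805 for SKBR3, 1.62 for MDA-MB-453 and 5.26 for T47D, which was 113-fold over the next line. ITGB8 was 109 in CAL51 and 0.114 to 4.85 in the others. ITGB6, the epithelial partner that activates latent TGF-beta, was 795 for MDA-MB-415 and 357 for SKBR3, against 85.0 for UACC-812, 15.0 for T47D, 46.97 for CAL51 and 1.91 for MDA-MB-453, the line apart below. CAL51 was thus the highest line for ITGB3 and ITGB8, and MDA-MB-415 and SKBR3 were the highest for ITGB6. ITGAV gave r of 0.82 and rho of 0.14 with ITGB3, 0.06 and 0.09 with ITGB6, and -0.60 and -0.31 with ITGB5.

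**Figure D4:**
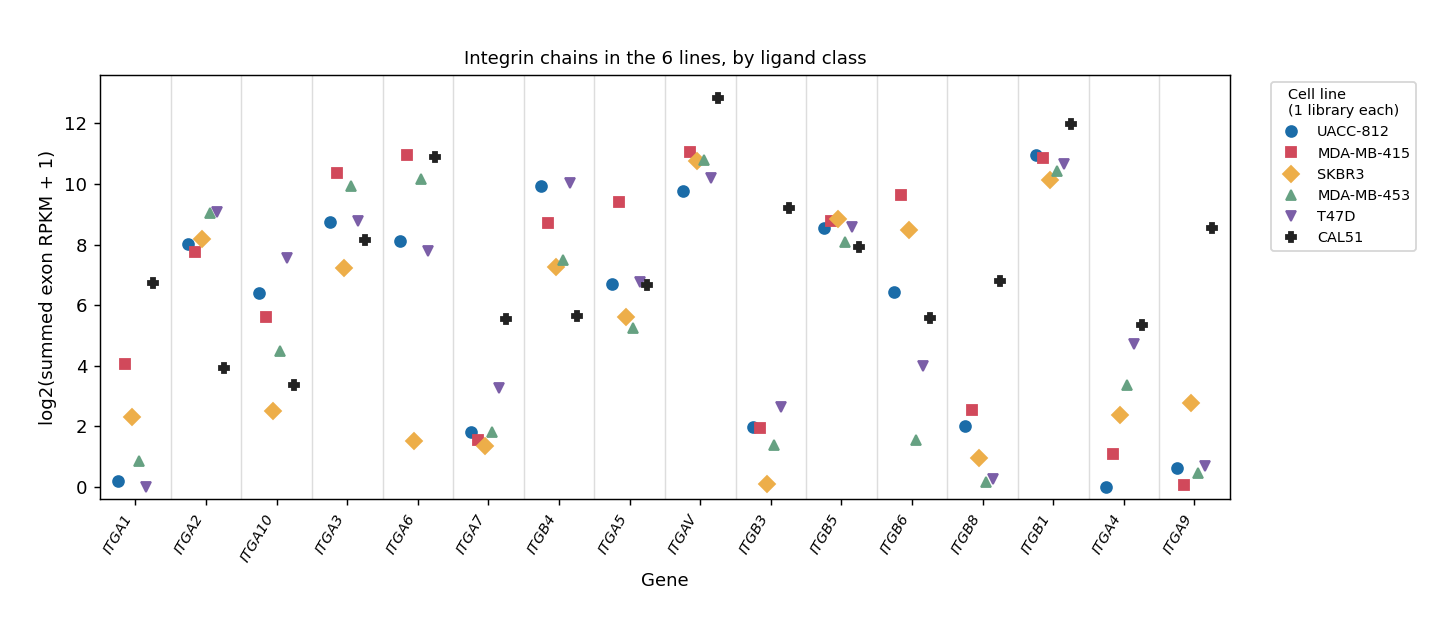
Levels of integrin chains on the log2(summed exon RPKM + 1) scale, ordered by ligand class, with 1 symbol for each line and 1 library for each line. The points of ITGB1 and ITGB5 lie close together, CAL51 stands above the rest for ITGB3, ITGB8 and ITGA9 and below for ITGA2, and SKBR3 stands below for ITGA6.

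ITGA5, the fibronectin receptor chain, was 671 for MDA-MB-415, against 104 for UACC-812, 48.3 for SKBR3, 36.7 for MDA-MB-453, 107 for T47D and 99.5 for CAL51. ITGA9, a receptor for tenascin and osteopontin, was 376 for CAL51, against 0.542 for UACC-812, 0.0368 for MDA-MB-415, 5.84 for SKBR3, 0.393 for MDA-MB-453 and 0.609 for T47D, which was 64.3-fold over the next line. ITGA4, its relative on leukocytes, was 39.7 for CAL51 and 25.4 for T47D, against 9.21 for MDA-MB-453, 4.18 for SKBR3, 1.15 for MDA-MB-415 and 0 for UACC-812. ITGA2B, the platelet chain, was listed at 0 for MDA-MB-415 and was 61.5 for T47D, 30.3 for CAL51, 13.3 for UACC-812, 5.26 for MDA-MB-453 and 3.05 for SKBR3.

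Of the integrins usual on leukocytes, ITGAE, which binds E-cadherin, was 106 for UACC-812, 112 for MDA-MB-415, 136 for SKBR3, 124 for MDA-MB-453, 72.8 for T47D and 228 for CAL51. ITGAM, the myeloid alpha chain, was 150 in MDA-MB-415, with at most 15.6 in the other lines. In MDA-MB-415 the monocyte marker CD14 was 176, beside at most 1.06 in the other lines, while ITGB2, the obligate partner of ITGAM, was 0.852 and PTPRC, the pan-leukocyte marker, was 0.489. ITGAL reached 25.3 for T47D, ITGB2 13.02 for CAL51, ITGB7 9.55 for T47D and ITGAD 1.19 for T47D.

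Genes that share exon bases with another coding gene on the reference annotation are uncertain, because the strand used in counting is not given in the sources used here. This concerns COL19A1 (with LMBRD1), COL9A3 (TCFL5), ITGA1 (PELO), ITGA7 (METTL7B), ITGB3 (AC068234.1) and ITGB7 (ZNF740). PELO was 7.58 in CAL51 and 8.74 to 37.6 in the others, so it was lowest where ITGA1 was highest. TCFL5 was 329 in UACC-812, the line with the highest COL9A3, and 39.4 to 183 in the others. LMBRD1 was 1398 in MDA-MB-415, the line with the highest COL19A1, and 477 to 1186 in the others. METTL7B was 1.85 in CAL51, the line with the highest ITGA7, and at most 1.08 in the others, and ZNF740 was 138 in T47D, the line with the highest ITGB7, and 68.6 to 102 in the others. The part of these genes in the values was not tested. None of the 71 members had the same values in all lines as another gene.

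The genes that process, bind and degrade these proteins were taken from 6 lists. Of 27 genes of collagen processing, 18 were 2-fold above in CAL51, where 20.9% of all genes were, and 3 below (18%), and 10 were above (19.9%) and 4 below (18.7%) in MDA-MB-415. Apart above in CAL51 were the prolyl 3-hydroxylases LEPRE1, LEPREL1 and LEPREL2, the procollagen protease enhancers PCOLCE and PCOLCE2, and the crosslinking oxidase LOXL4. LEPREL1 was 725 for CAL51, against 10.2 for UACC-812, 40.9 for MDA-MB-415, 4.99 for SKBR3, 0.230 for MDA-MB-453 and 0 for T47D. PCOLCE was 404 for CAL51 and at most 6.62 elsewhere, LEPREL2 was 213 for CAL51 and at most 38.4 elsewhere, and LOXL2 was 578 for CAL51 and 171 for UACC-812, with at most 8.65 elsewhere. SERPINH1, the collagen chaperone, was 14.0 in SKBR3, where it was apart below, and 540 in CAL51.

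Of 13 basement membrane partners, 6 were 2-fold above in CAL51 (all genes, 20.9%), 7 in UACC-812 (20.6%) and 7 in SKBR3 (15.9%), and 9 were below in T47D (11.5%). NID1, which links laminin to type IV collagen, was 377 for CAL51 and at most 1.35 in the others, and HSPG2, the perlecan proteoglycan, was 4847 for CAL51, against 17.9 for MDA-MB-453 and 124 to 388 in the rest. PXDN, the peroxidase that crosslinks type IV collagen, was 0.0112 for CAL51 and 0.245 for MDA-MB-453, against 508 for UACC-812, 34.0 for MDA-MB-415, 993 for SKBR3 and 769 for T47D. FBLN1 was 2599 for CAL51 and 1211 for UACC-812 and 5.01 for T47D, and FBLN2 was highest in UACC-812 at 1310.

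Of 10 other matrix ligands of integrins, 7 were 2-fold above in CAL51 (all genes, 20.9%) and 7 in SKBR3 (15.9%). FBN1 was 3358 and the osteopontin gene SPP1 612 in CAL51, against at most 104 and 1.28 elsewhere. TNC, tenascin, was 7346 for MDA-MB-453 and 482 for MDA-MB-415, with at most 12.5 elsewhere, and TGFBI was 388 for MDA-MB-415, with at most 51.4 in the other lines. Of 11 receptors other than integrins, 5 were 2-fold above in UACC-812 (all genes, 20.6%) and 4 in MDA-MB-415 (19.9%), and 4 were below in SKBR3 (21.2%). CD44, the hyaluronan receptor, was 3111 in MDA-MB-415, against 0.460 in MDA-MB-453 and 36.0 to 288 in the other lines. SDC2 was 1389 and DDR2, a receptor for fibrillar collagen, 179 in CAL51, against at most 150 and 26.6 elsewhere, and DDR1, its epithelial relative, was highest in MDA-MB-415 at 5088.

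Of 22 adaptor proteins that join integrins to actin, 13 were 2-fold above in CAL51 (all genes, 20.9%), 9 were below in SKBR3 (21.2%) and 8 below in MDA-MB-453 (15.9%). TLN2, a talin, was 1387 in CAL51 and 2.24 in SKBR3, with 104 to 746 in the others. LIMS2 was 117 in CAL51 and at most 8.20 elsewhere, TNS1 was listed at 0 in CAL51 and was 6.95 to 90.5 in the others, and PARVB was highest in MDA-MB-415 at 162. Of 15 matrix proteases and inhibitors, 11 were 2-fold above in CAL51 (all genes, 20.9%) and 2 below (18%), 7 were above in UACC-812 (20.6%) and 7 were below in T47D (11.5%). MMP14, the membrane collagenase, was 526 in CAL51 and at most 19.5 elsewhere. MMP13, another collagenase, was 803 for MDA-MB-415, with at most 27.1 in the other lines, MMP2 was 119 for MDA-MB-415, with at most 7.49 in the other lines, and the inhibitor TIMP3 was 539 for MDA-MB-415, with at most 27.1 in the other lines.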

How the data were processed

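RNA of 6 breast cancer cell lines, 1 library for each, was sequenced as single-end reads, per the labels' protocols and series text. The authors deposited a table of 16444 genes, with a value for each line that was read here as RPKM summed over exons. No label states this unit. Of low values of single-exon genes, 32.0% for MDA-MB-453 to 80.7% for MDA-MB-415 lay within 0.01 of a whole read at the recovered depth. The median share over the depths tried was at most 1.22% in any line. Over 9734 genes the log2 value had a slope of 0.88 on log2 exon number. CASAVA 1.8, RSEM and the build hg19 are named without role or order, per the submitters' processing notes. Annotation and counting settings are not given in the sources used here.

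Left out were 22 genes named as dates and 4 that shared names. Values were compared on the log2(value + 1) scale, as deposited, which understates the change of low genes. Exact zeros may be failed estimates, so no fold is given against them. Calls were a gap of 2 log2 units to every other line, or 2-fold from the median of the 5 others after centring. Rescaling, pseudocounts, a filter and leaving out each line were the alternatives. Named genes were, by role, those apart in any line, up to 4 more of the widest range among those reaching 5, and a fixed list, and up to 4 of each related list; further genes were named beside them. Genes near ITGA6, COL4A2 and COL6A2 were looked up after values were seen. Counts cover all members, but 1 member and 1 marker are not reported here by name. The members and lists were chosen with earlier results of these data known. The apart calls were tested on simulated data in which changes were placed only in genes of higher level. That test does not cover calls that rest on low values. Python 3.11.15, pandas 2.3.3, numpy 2.4.6, scipy 1.17.1 and matplotlib 3.10.9 were used. Reference exon numbers and promoters are of a later build than hg19.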

Additional observations from a re-analysis of the deposited data

How the results depend on the processing

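No paired analysis was possible because each line has 1 library and no fit was made. Counts of members that were apart or 2-fold away stayed within 1.5 times the reported count under the alternatives, except as follows, and the cause was not tested. With a pseudocount of 5, members apart above were 1 in UACC-812 and 0 in SKBR3, those apart below were 1 in CAL51, 1 for MDA-MB-453 and 0 for MDA-MB-415, and those 2-fold above in SKBR3 were 11. With a pseudocount of 0.1, 1 member was apart above in T47D and 3 apart below in UACC-812. Keeping genes that reached 5 left 0 apart above in SKBR3. Median-of-ratios, upper-quartile and trimmed-mean scaling each put 1 member, COL4A6, apart above in MDA-MB-453. Against the mean of the 5 others, 24 members were 2-fold below in UACC-812. Leaving out 1 line at a time, members apart above ranged from 3 to 6 in UACC-812, 1 to 2 in SKBR3, 0 to 1 in MDA-MB-453, 0 to 2 in T47D, 12 to 17 in CAL51 and 10 to 15 for MDA-MB-415. Members apart below ranged from 0 to 2 in UACC-812, 4 to 9 in SKBR3 (9 without MDA-MB-453), 3 to 7 in MDA-MB-453 (7 without SKBR3) and 0 to 1 in T47D. Of 71 members, 66 kept their highest line under all 3 scalings, the exceptions being COL11A2, ITGA2, ITGAE, LAMA5 and LAMB1. Depth limits values under about 1, and the intervals that a count would give cannot be had for summed exon values.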

Other observations

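EMID2, which RefSeq lists as a synonym of COL26A1 and which the name rule did not match, was 417 in CAL51, 1.01 in SKBR3, 0.510 in T47D and listed at 0 in UACC-812, MDA-MB-415 and MDA-MB-453. ITGBL1, an integrin-like gene left out by the rule, was 140 in MDA-MB-415, 0.254 in SKBR3 and listed at 0 in the other 4 lines.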
